A study of Homo sapiens with 2 samples.

Results

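Interferons are secreted proteins that cells release on infection, and their signal runs through a short chain of proteins. A receptor at the cell surface activates Janus kinases, which phosphorylate STAT proteins, and these enter the nucleus and switch on antiviral genes together with interferon regulatory factors (IRFs). The 9 genes described here stand along this chain: the receptor chains IFNAR1 and IFNGR1, the kinases JAK1 and TYK2, the transcription factor STAT2, and the factors IRF1, IRF3, IRF7 and IRF9. They were chosen by name, as the genes whose RefSeq transcripts the array probes carry, and they are 9 of 11994 genes compared. The choice was made with earlier results of these data known. They were represented by 10 probes, with 8 genes on 1 probe each and IRF3 on 2. All 10 probes were well above background on both arrays, which is the flag of the scanner software for a spot clearly brighter than its surroundings.

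HCT116 is an established cell line from a human colon cancer. The mock group carried the pEB vector alone, and the HOXA5 short group carried pEB with HOXA5 short RNA, a shorter non-coding RNA from the HOXA5 gene. Both were kept in blasticidin for 2 weeks, and each group was measured on 1 array. The sources used here do not say whether the stable transfectants were a pool of cells or 1 clone, and no culture was repeated on an array. Each difference below is therefore a value of this pair of arrays, with no test between the groups and no p-value.

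HOXA5, the gene that shares sequence with the transfected RNA, gave a signal of 39.4 in mock and 346 in HOXA5 short cells, a log2 difference of 2.83. The 75th percentile of the signals was 35.6 in mock and 44.0 in HOXA5 short cells, a ratio of 1.23, and every difference is given after this ratio was removed. Signals themselves are printed unscaled, and the value after ± is the error that the scanner software gives for that spot. Of the 9 epithelial and colonic marker genes with a probe, 6 were compared, among them EPCAM and CDX2. KRT20, VIL1 and LGALS4 were above background on neither array. The defining markers PTPRC and CD3E of immune cells and PECAM1 of endothelium were flagged above background on neither array. Over the whole lists, 2 of 6 immune (CD68 and HLA-DRA), 1 of 5 fibroblast (COL1A1) and 0 of 3 endothelial markers were compared. The immune marker CD14 was above background on the HOXA5 short array only. In total RNA, fewer cells that carry a transcript and less of it per cell cannot be told apart. The spread of measurement came from copies of 593 probes on each array, and the log2 difference of a single spot had an SD of 0.26 (0.23 for signals over 1000, 0.25 from 200 to 1000, 0.25 from 50 to 200 and 0.28 from 20 to 50). This is the spread of spots on these arrays, and it holds no spread between cultures. It also holds no spread between different probes of 1 gene. The 7 probes of MAVS, a gene described further on, ran from -0.32 to 0.44, while the 2 IRF3 probes gave -0.05 and -0.04. For the 8 members with 1 probe that spread is not known.

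None of the 9 genes differed 2-fold between the arrays (0 higher, 0 lower). Of all genes, 0.642% were higher by that much in HOXA5 short cells and 0.258% were lower. The median log2 difference of the 9 was 0.06, against -0.02 over all genes. Higher values were found for 6 of the 9 and lower values for 3, and 45.5% of all genes were higher by any amount. Of the 9, 3 were higher by at least the single-spot SD (IRF1, STAT2 and IRF7), where 11.8% of all genes were. IFNAR1 was the 1 gene lower by at least that much, where 12.5% of all genes were.

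The 9 values can be described by what the genes are known to do. STAT2, IRF1, IRF7 and IRF9 are themselves switched on by interferon, so they are both carriers and targets of the signal. Their log2 differences ran from 0.24 to 0.45, with a median of 0.33, which is a 1.26-fold higher signal. The differences of the other 5 genes ran from -0.37 to 0.06, with a median of -0.04. The 2 groups also differed in their mock signals, though these overlapped. In mock cells the 4 genes stood at 1791 (IRF7), 888 (STAT2), 335 (IRF9) and 99.1 (IRF1). The other 5 stood at 245 (IFNGR1), 214 and 243 (IRF3), 63.2 (IFNAR1), 32.2 (TYK2) and 30.7 (JAK1). This grouping was written with the values known, so that the ranges do not overlap is a description of 9 genes on 1 pair of arrays and supports nothing.

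**Figure D1:**
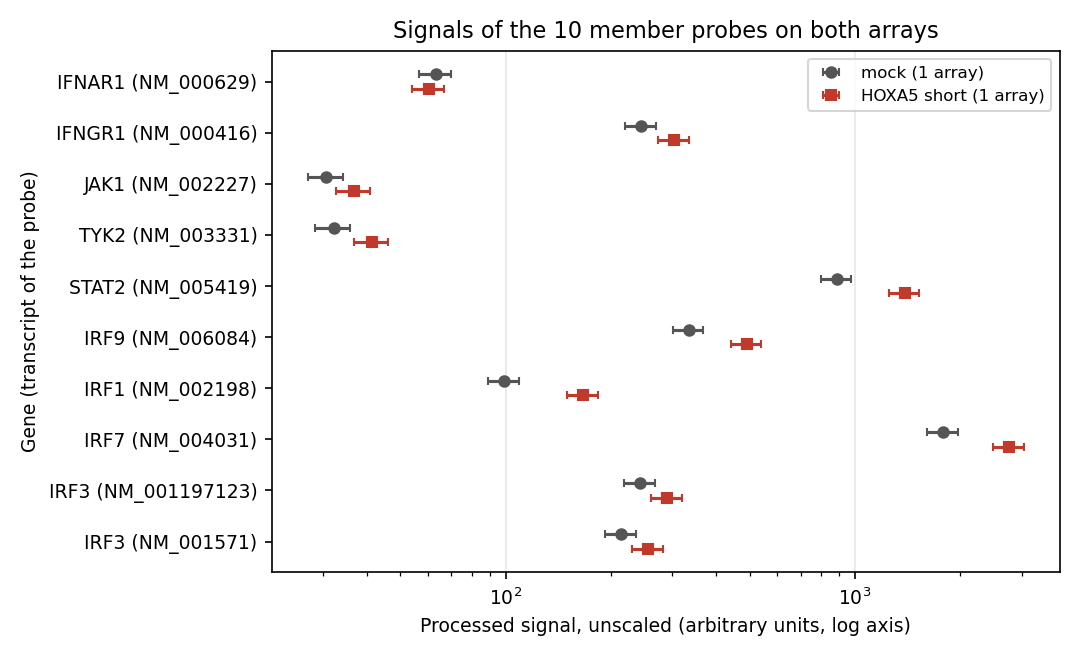
Processed signal of the 10 member probes on a log axis, before scaling, with the mock array as circles and the HOXA5 short array as squares. Bars are the error that the scanner software gives for each spot. The array ratio of 1.23 is still in these signals, and 9 of the 10 probes are brighter on the HOXA5 short array, the exception being IFNAR1.

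Stretches of promoter are shown for genes that were higher, because STAT and IRF proteins act through short DNA words. Sequences were taken from the RefSeq promoter table of GRCh38.p14, which holds 250 bases before and 50 after each start, and the 150 bases printed all lie before the start. Capitals mark matches to the letters TTCNNNGAA, the word bound by STAT dimers (the GAS element), or to GAAANNGAAA, the core of the word bound by IRF proteins and by ISGF3, the complex that holds STAT2 and IRF9 (the ISRE). Both strands were searched, and TTCNNNGAA reads the same on both. IRF1 (chr5:132490774-132490923, minus strand), IRF9 (chr14:24161115-24161264, plus strand) and STAT2 (chr12:56360108-56360257, minus strand) are members, and IFNL1 (chr19:39296157-39296306, plus strand), whose stretch ends 101 bases before its start, is an interferon gene described further on.
IRF1: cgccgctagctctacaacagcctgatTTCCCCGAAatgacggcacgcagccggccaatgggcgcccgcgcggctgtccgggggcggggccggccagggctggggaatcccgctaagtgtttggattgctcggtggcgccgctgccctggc
IRF9: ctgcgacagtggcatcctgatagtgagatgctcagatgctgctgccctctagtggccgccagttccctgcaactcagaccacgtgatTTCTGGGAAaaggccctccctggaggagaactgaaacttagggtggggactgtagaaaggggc
STAT2: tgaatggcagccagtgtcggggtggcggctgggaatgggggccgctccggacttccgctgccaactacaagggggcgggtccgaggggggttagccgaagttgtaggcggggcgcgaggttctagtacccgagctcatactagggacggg
IFNL1: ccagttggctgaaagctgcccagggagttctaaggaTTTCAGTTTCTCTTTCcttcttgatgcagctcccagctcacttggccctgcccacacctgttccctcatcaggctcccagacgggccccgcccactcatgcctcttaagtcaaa

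The table held promoters for 7 of the 9 members, 11 promoters in all, and none for IRF3 or IRF7. TTCNNNGAA matched in 2 of the 11: in IRF1, from 124 to 116 bases before the start, and in IRF9, from 63 to 55 bases before it. The same letters matched in 7.66% of all 35116 promoters. GAAANNGAAA matched in 0 of the 11 and in 3.57% of all promoters. The STAT2 stretch held neither word. A match says that these letters stand there, and no match says only that they do not stand in this window.

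The receptor chains come first in the pathway. IFNAR1, a chain of the receptor for type I interferons, had a signal of 63.2 ± 6.51 in mock and 60.2 ± 6.25 in HOXA5 short cells. After scaling this was a log2 difference of -0.37, a 1.30-fold lower signal, and the scanner errors of both spots combine to 0.21 on this scale. IFNAR1 thus stood lower by 1.49 times the SD of single spots of its brightness. With normexp, another background correction, its difference was -0.15. IFNGR1, the ligand-binding chain of the receptor for interferon gamma, had a signal of 245 ± 24.6 in mock and 304 ± 30.5 in HOXA5 short cells. Its log2 difference was 0.01, well inside the spread of single spots.

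The partner chains were measured as well. IFNGR2, the second chain of the interferon gamma receptor, had signals of 93.7 in mock and 155 in HOXA5 short cells, a log2 difference of 0.42. IFNAR2, the second chain of the type I receptor, was compared on 2 of its 3 probes, which gave 0.19 and 0.07. IFNLR1 and IL10RB, which together form the receptor for interferon lambda, gave -0.06 and 0.09. Of the 6 receptor chains, 4 were higher and 2 lower, where 45.5% of all genes were higher, and their median was 0.05. In both the type I and the interferon gamma receptor, the second chain had the higher difference, and this order was not tested.

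JAK1 and TYK2 are the kinases that sit on the type I receptor, and JAK1 also serves the interferon gamma receptor. The JAK1 signal was 30.7 ± 3.53 in mock and 36.8 ± 4.15 in HOXA5 short cells, a log2 difference of -0.04. The TYK2 signal was 32.2 ± 3.65 in mock and 41.4 ± 4.56 in HOXA5 short cells, a log2 difference of 0.06. Both differences were well inside the SD of single spots of that brightness, 0.28. JAK2, the second kinase of the interferon gamma receptor, gave -0.30, with 3 of 25 well-measured spots around it 2-fold apart. JAK3, a kinase of interleukin receptors, gave -0.22.

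STAT2 and IRF9 are parts of ISGF3, the complex that carries the type I and lambda signal to the ISRE. The STAT2 signal was 888 ± 88.9 in mock and 1388 ± 139 in HOXA5 short cells. Its log2 difference was 0.34, a 1.27-fold higher signal and 1.51 times the SD of single spots of its brightness. IRF9, the DNA-binding subunit, had a signal of 335 ± 33.5 in mock and 490 ± 49.0 in HOXA5 short cells, a log2 difference of 0.24. That is a 1.19-fold higher signal, just under the SD of single spots of its brightness, 0.25.

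A probe for STAT3, which carries the signals of interleukin 6 and related cytokines, was printed in 10 spots. Its copies gave 0.10 ± 0.27 (SD over 10 spots), with 6 higher and 4 lower. A second STAT3 probe gave 0.46, inside the range of those copies, from -0.22 to 0.64. STAT4 gave -0.13 and STAT6, the STAT of interleukin 4, gave -0.11. STAT5A and STAT5B were above background on neither array. Of the 4 STATs compared here, STAT2 and STAT3 were higher and STAT4 and STAT6 lower, with a median of 0.09. Over all genes 45.5% were higher.

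IRF1 acts downstream of both receptors and is itself an early target of the signal. Its signal was 99.1 ± 10.03 in mock and 167 ± 16.8 in HOXA5 short cells. The log2 difference of 0.45, a 1.36-fold higher signal, was the highest among the 9 members and 1.77 times the SD of single spots of its brightness. IRF7, the factor that amplifies type I interferon genes, had a signal of 1791 ± 179 in mock and 2769 ± 277 in HOXA5 short cells. Its log2 difference was 0.32, a 1.25-fold higher signal and 1.44 times the SD of single spots.

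IRF3 is present in most cells without stimulation and is activated by phosphorylation rather than by new transcription. Its probe for NM_001571 gave 214 ± 21.5 in mock and 256 ± 25.7 in HOXA5 short cells, a log2 difference of -0.04. Its probe for NM_001197123 gave 243 ± 24.4 in mock and 290 ± 29.0 in HOXA5 short cells, a log2 difference of -0.05. The 2 probes differed by less than the spread of single spots.

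Of the other IRFs, IRF5, which acts below Toll-like receptors, gave 0.11. IRF2, IRF4 and IRF8 were above background on neither array, and IRF4 and IRF8 are known from blood cells. Of the 5 IRFs compared here, 4 were higher and 1 lower, where 45.5% of all genes were higher, with a median of 0.24. The members of this family above the single-spot SD were IRF1 and IRF7, where 11.8% of all genes were.

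**Figure D2:**
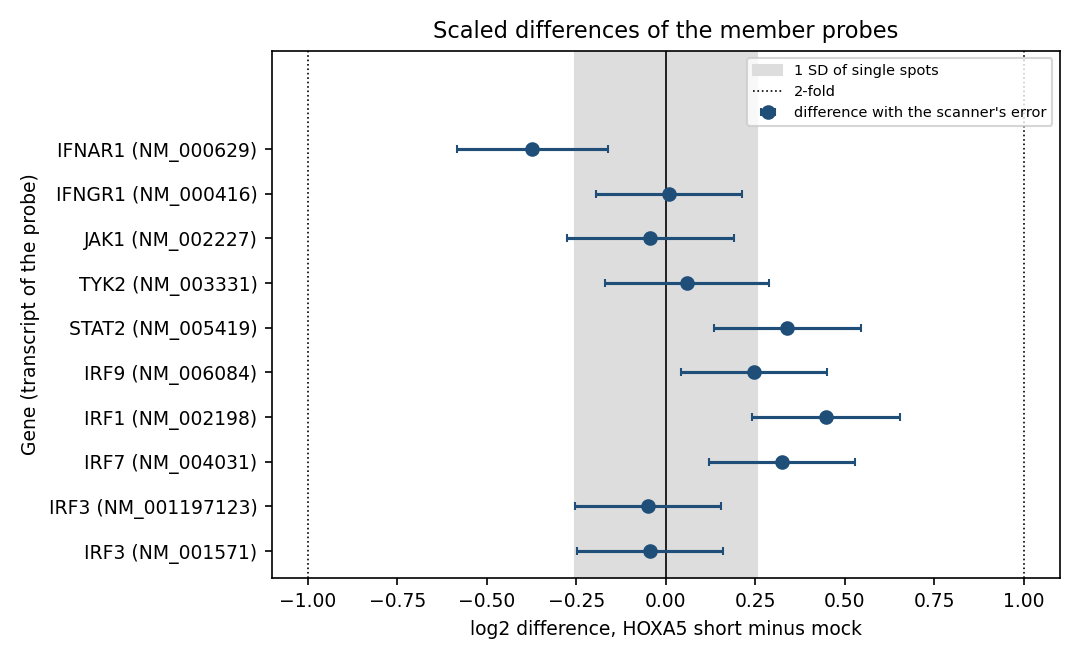
Log2 difference of each member probe, HOXA5 short minus mock, after scaling each array to its 75th percentile. Bars are the combined scanner errors (0.20 to 0.23), the gray band is 1 SD of single spots (0.26) and dotted lines mark 2-fold; STAT2, IRF1 and IRF7 lie to the right of the band, IFNAR1 to the left and no probe reaches 2-fold.

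The positions of the member spots were examined, because other areas of these arrays were uneven. Each member spot had 23 to 33 well-measured spots within 4 rows and 4 columns. For 8 of the 10 probes none of these differed 2-fold, and the remaining probes, for IRF7 and STAT2, had 1 and 2 such neighbors. The median difference of the spots around IRF7 was -0.19, and IRF7 less that median was 0.52. For STAT2 the spots around it had a median of 0.08, and the difference less that median was 0.26. Brightness was compared too, and probes as bright as each member had median differences from -0.03 to -0.01.

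The ligands lie upstream of the members. Of 21 interferon genes listed, 17 had a named probe, and 13 of these passed the background flag on neither array, among them IFNG and all 9 IFNA genes with a probe. The interferon lambda genes were above background on both arrays, and these type III interferons are the ones that epithelia are known for. IFNL1 had signals of 104 in mock and 248 in HOXA5 short cells, a log2 difference of 0.95. IFNL2 had signals of 216 in mock and 501 in HOXA5 short cells, a log2 difference of 0.91. IFNL3 had signals of 36.6 in mock and 86.1 in HOXA5 short cells, a log2 difference of 0.93.

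All 3 interferon lambda genes were thus close to 2-fold higher, at 1.93-fold, 1.88-fold and 1.91-fold. Their values lay at over 3 times the single-spot SD, and 0 of the 24, 45 and 31 well-measured spots around them differed 2-fold. IFNL2 and IFNL3 are near-identical in sequence, so their probes may read each other's transcript and are uncertain as separate values. The IFNL1 promoter stretch printed above holds 2 overlapping matches to the ISRE core on the minus strand, from 214 to 205 and from 208 to 199 bases before the start. The IFNL2 promoter and 1 of the 2 IFNL3 promoters hold 1 match each, from 176 to 167 bases before the start. In the IFNB1 promoter the ISRE core had no match, and TTCNNNGAA matched from 218 to 210 bases before the start. IFNB1 was well above background on the HOXA5 short array only, with signals of 5.47 in mock and 11.2 in HOXA5 short cells. Against the dimmest probe that was well above background on the mock array, IFNB1 stood 1.17-fold higher. This bound holds no measurement error and is smaller than the single-spot SD, which is 1.19-fold.

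The proteins that switch IRF3 and IRF7 on form a further list. Of 12 listed genes 10 were compared, 5 higher and 5 lower, where 45.5% of all genes were higher. Their median was 0.02. By at least the single-spot SD, 1 was higher and 2 were lower, where 11.8% and 12.5% of all genes were. TBK1, the kinase that phosphorylates IRF3, gave -0.41, and TRAF3, an adaptor upstream of it, gave -0.33. The higher end held MYD88, the adaptor of Toll-like receptors, at 0.19 and AZI2 at 0.26, whose 2 probes gave 0.01 and 0.50. MAVS, the mitochondrial adaptor of RNA sensors, was read by 7 probes that ran from -0.32 to 0.44.

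Among the genes that restrain the pathway, 8 of the 12 compared were higher and 4 lower, where 45.5% of all genes were higher. Their median was 0.08. PTPN11 was counted as higher by the mean of its 3 probes, 0.24, although these ran from -0.26 to 1.03. CISH, a feedback inhibitor of STAT5, was at least 2-fold higher at 1.23, with signals of 9.50 in mock and 27.6 in HOXA5 short cells. This is a dim signal, and 0 of its 18 well-measured neighbors differed 2-fold. USP18, which binds IFNAR2 and is induced by interferon, had signals of 472 in mock and 876 in HOXA5 short cells, a log2 difference of 0.59. SOCS1 and SOCS3, the inhibitors of Janus kinases, gave 0.07 and -0.09. The lower end held PTPN1 at -0.21 and PIAS4 at -0.21.

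The genes that ISGF3 is known to switch on were counted next. Of 44 listed, 41 were compared, and 35 of these were higher and 6 lower, where 45.5% of all genes were higher. The median was 0.39, and 27 (65.9%) were higher by at least the single-spot SD, where 11.8% of all genes were. At least 2-fold higher were 2 genes, where 0.642% of all genes were. These were SP110 (2.68-fold, signals of 176 in mock and 580.0 in HOXA5 short cells) and TRIM21 (2.14-fold, signals of 79.0 and 209). The SP110 spot lay in an uneven area, with 5 of its 30 well-measured neighbors 2-fold apart, and the part of that area in its value was not tested. EIF2AK2 and IFIT5 marked the lower end, at -0.14 and -0.14. An interferon-induced list was already known to be higher on these arrays, so this count is no independent support.

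**Figure D3:**
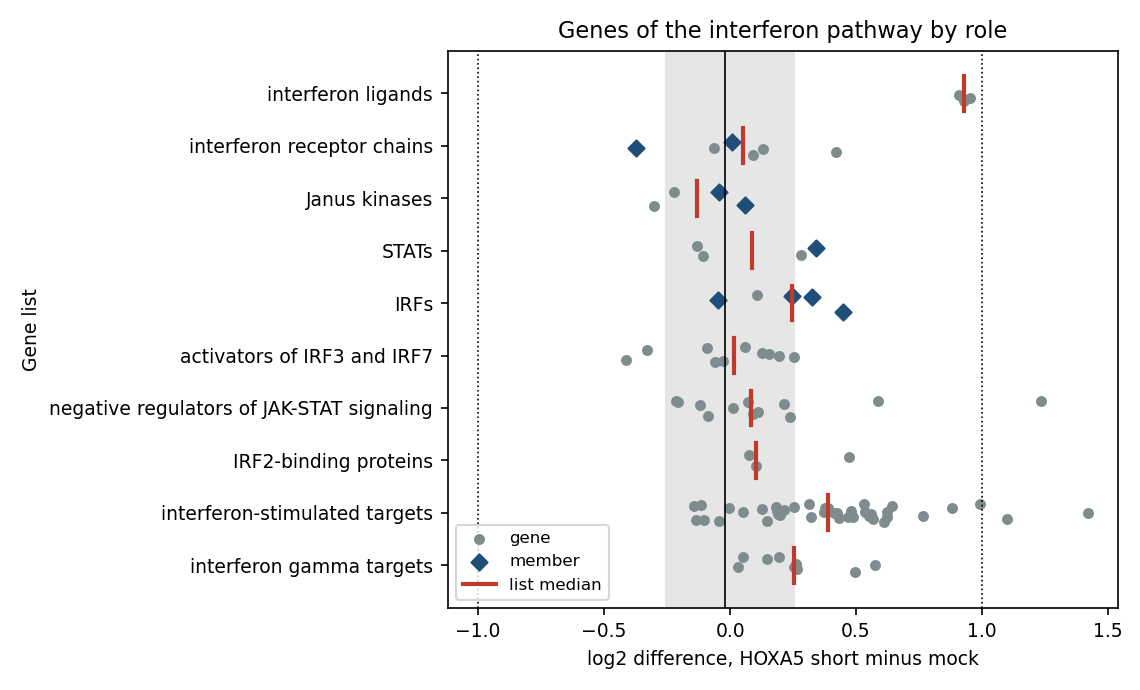
Log2 difference of each compared gene of the pathway by role, with members as diamonds, other genes as circles and the median of each list as a vertical bar. The gray band is 1 SD of single spots, the solid line the median of all genes (-0.02) and dotted lines 2-fold; the 3 interferon lambda genes lie just below 2-fold, and the medians of all lists except the ligands and the interferon-stimulated targets lie inside the band.

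Without spike-in scaling, 5 of the 9 members kept their direction under the alternatives that measured them, and 4 changed sign in at least 1. Scaling to the RNA spike-ins, which were lower on the HOXA5 short array (median of 7 detected spike-ins -0.47), raised every gene by 0.47 and put IFNAR1 at 0.093. The median of all genes then was 0.45. Under the other 11 alternatives IFNAR1 stayed lower, in a range from -0.41 to -0.15, wherever it was measured. STAT2 ran from 0.26 to 0.47, IRF9 from 0.22 to 0.37, IRF1 from 0.43 to 0.54 and IRF7 from 0.28 to 0.52. IFNGR1, JAK1, TYK2 and IRF3 changed sign in 3, 3, 1 and 2 of them, since they lay close to 0.

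**Figure D4:**
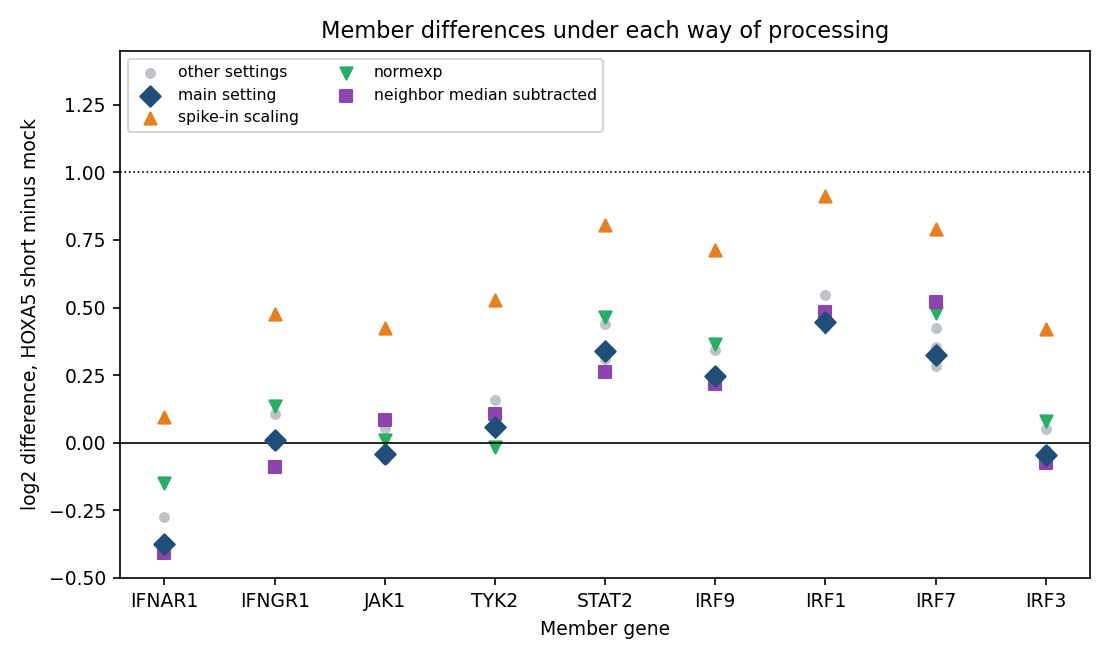
Log2 difference of each member gene in the main setting (diamonds) and under the alternatives, with spike-in scaling, normexp and subtraction of the neighboring spots marked. The dotted line is 2-fold; STAT2, IRF9, IRF1 and IRF7 lie above 0 under each setting shown, IFNGR1, JAK1, TYK2 and IRF3 lie on both sides of 0, and spike-in scaling raises all 9 by 0.47.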

How the data were processed

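Cy3-labeled RNA made from 400 ng of total RNA was measured on SurePrint G3 human arrays (Agilent), 1 array in each group, and groups were taken from the genotype label. Both arrays lay on 1 slide in 1 scan. The authors deposited scanner output of Feature Extraction 11.5.1.1, in which each spot has a background-corrected intensity (the processed signal) on a linear scale with its error. The authors also deposited log2 values of 19461 probes, each centered on its own mean, made with a commercial package whose scaling was not given; their column medians were 0.01 and -0.01, and the column difference matched the scaled scanner difference within 0.05 for 99.9% of shared probes.

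Here, log2 signals were averaged over the unflagged spots of a probe, and each array was scaled by subtracting its 75th percentile, taken over 50595 non-control probes. A probe was compared when well above background on both arrays (17938 probes), and a gene was the mean of its compared probes. Accessions were matched to RefSeq symbols of GRCh38.p14, which named 59.3% of the probes. The arrays were annotated on hg19, so no probe coordinates are given. The single-spot SD came from probes of which 5 or more spots were well above background, outlier spots kept. Steps were tested on simulated data. R 4.3.3 with limma 3.58.1 and Python 3.11.15 were used. Precision is limited by the number of arrays. Members and lists were chosen with earlier results of these data known. Named are the members, the measured receptor chains, kinases, STATs and IRFs, and of each other list the 2 highest, the 2 lowest and any gene past 2-fold. MAVS, SOCS1, SOCS3, HERC5, PTPN11, IFNB1 and GBP1 were added after their values were seen. PIAS1 and TRIM22, like IFNB1 and GBP1, were above background on the HOXA5 short array only and are not described. Some items are not reported here.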

Additional observations from a re-analysis of the deposited data

How the results depend on the processing

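Alternatives were scaling to the median, to the 75th percentile of detected probes or to the spike-ins, quantile normalization, normexp background correction with an offset of 50 on median foreground and background signals, the deposited log2 values, no filter, signals above the median of detected probes, the brightest probe, leaving out spots in uneven zones (at least 10% of at least 10 neighbors 2-fold apart) and subtraction of the neighboring spots' median. Subtraction of the median of probes of like brightness was chosen after seeing the data. No paired analysis was possible because each group has 1 array and no result comes from a test. Shifts under the single-spot SD of 0.26 were counted as no move. Of 248 recomputed values, 227 did not move and 21 did, 20 of them under spike-in scaling, which shifts all genes by 0.47 by construction. There the median of the 9 members was 0.53, and the members were at 0.093 (IFNAR1), 0.48 (IFNGR1), 0.42 (JAK1), 0.53 (TYK2), 0.81 (STAT2), 0.71 (IRF9), 0.91 (IRF1), 0.42 (IRF3) and 0.79 (IRF7). The list medians were 0.52 for receptor chains, 0.33 for Janus kinases, 0.55 for STATs, 0.71 for IRFs, 1.40 for ligands, 0.48 for activators, 0.55 for negative regulators, 0.57 for IRF2-binding proteins, 0.86 for interferon-stimulated targets and 0.72 for interferon gamma targets. Without a filter the median of the interferon ligands was -0.15, since that setting adds the ligands not well above background. The count of members 2-fold apart was 0 under every alternative and 0 at 1.5-fold. The share of all genes past 1.5-fold was not counted, so nothing is read from that 0. With signals above the median, IFNAR1, JAK1 and TYK2 were not measured. Over all genes, 77 were 2-fold higher and 31 lower, against 108 and 20 with median scaling, 400 and 8 with spike-ins, 37 and 8 with normexp, 215 and 107 in the deposited values, 446 and 564 without a filter, 35 and 14 above the median signal, 48 and 20 without uneven zones and 60 and 19 less the neighbors. Precision falls in dim spots, where signals under 20 had an SD of 0.33.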

Other observations

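Genes induced mainly by interferon gamma, whose signal IRF1 serves, were compared as a further list. Of 18 listed genes 9 were compared and all 9 were higher, where 45.5% of all genes were. Their median log2 difference was 0.25, against -0.02 over all genes, and 4 of the 9 were higher by at least the single-spot SD, where 11.8% of all genes were. CXCL10, a chemokine for T cells, was at 0.58 over 2 probes, which gave 0.52 and 0.64. CD274, the checkpoint ligand PD-L1, was at 0.50 with signals of 11.9 in mock and 20.8 in HOXA5 short cells. The lower end held TAP2, a peptide transporter, at 0.03 on 1 of its 2 probes and WARS1, a tRNA synthetase, at 0.05. The other TAP2 probe was well above background on the HOXA5 short array only. It stood at least 1.43-fold higher there, with signals of 6.39 in mock and 13.7 in HOXA5 short cells. GBP1, a guanylate-binding protein, was well above background on the HOXA5 short array only. It stood at least 1.93-fold higher there, a bound that holds no measurement error. The 3 proteins that bind IRF2, a repressor of the pathway, were at 0.47 (IRF2BP1), 0.10 (IRF2BPL) and 0.08 (IRF2BP2), while IRF2 itself was not well above background on either array.

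HERC5, a ligase that attaches the interferon-induced modifier ISG15, is a target printed in 10 spots. All 10 copies were higher on the HOXA5 short array, by 0.37 ± 0.14 (SD over the 9 copies without an outlier flag). PTPN11, a phosphatase that acts on STAT proteins, had a probe in 10 spots that were all lower, by -0.26 ± 0.08 (SD over 9 copies), whereas 2 other PTPN11 probes gave -0.06 and 1.03.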
